A study of Homo sapiens with 6 samples.

Results

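The TNF superfamily comprises the cytokines related to tumour necrosis factor and the receptors that bind them. Members here were the genes whose only platform symbol on a probe set starts with TNFSF or TNFRSF, or is TNF, LTA, LTB, FAS, FASLG, CD27, CD70, CD40, CD40LG, LTBR, EDAR or RELT. Genes were chosen by name and by no measured value, though with earlier results of these data known. This gave 39 genes, 14 ligands and 25 receptors. They were among 18417 genes with a probe set of their own. Where a gene had several probe sets, the one with the highest mean over all arrays was kept. The members were compared between 3 arrays of G9a knockdown cells and 3 arrays of untreated parental MDA-MB231 cells, called control. The G9a knockdown cells are 1 clone of MDA-MB231 with a stable knockdown of G9a. MDA-MB231 is an established line of metastatic breast cancer cells, and the labels describe the knockdown cells as less metastatic. EHMT2 encodes G9a, an enzyme that methylates histone H3 and is known for gene repression. How G9a was knocked down was not analysed here. Both kinds of cell were grown in DMEM/F12 with serum and harvested in log growth. With 1 clone, an effect of the knockdown and a difference between that clone and the parental population cannot be told apart. The labels do not tell whether the replicates were separate cultures, and p-values therefore cover only the spread between these arrays, which may be technical.

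Ligands of the family are mostly membrane proteins that act as trimers and can be shed by proteases. Their receptors fall into those with a death domain, which can start apoptosis through adaptors such as FADD, those that recruit TRAF proteins and activate NF-kappaB, and decoys that bind ligand without signalling. Many ligands and TRAF-binding receptors are best known from leukocytes, and the TRAIL receptors and TNFR1 from epithelial and tumour cells.

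Values are log2 intensities, 1 per probe set and array, and differences are knockdown minus control on that log2 scale with limma's standard error. A difference was called where limma's p, adjusted by the Benjamini-Hochberg method over all 18417 genes, was below 0.05. EHMT2 itself read 9.66, 9.59 and 9.51 on the knockdown arrays and 10.21, 10.27 and 9.93 on the control arrays, a difference of -0.55 ± 0.10 (SE, limma, adjusted p = 0.0259). With 1 array left out it stayed between -0.66 and -0.49 and passed in 1 of 6 fits, without control replicate 3. All 6 basal breast cancer markers were measured, and their mean log2 value lay between 13.19 and 13.22 on the knockdown arrays and between 13.13 and 13.17 on the control arrays, where the median of all probe sets on an array was 7.79 to 7.86. Of 10 leukocyte markers 9 were measured and none passed; their mean log2 value was 7.33 to 7.44 on the knockdown arrays and 7.26 to 7.35 on the control arrays. Their differences ranged from -0.19 for the macrophage marker CD68 to 0.22 for CSF1R, a receptor of the same lineage, and 7 of the 9 were positive. PTPRC, the leukocyte common antigen gene, read 5.12 to 5.17 on the knockdown arrays and 4.89 to 4.97 on the control arrays (adjusted p = 0.0962). CD68 read 12.11 to 12.21 on the knockdown arrays and 12.24 to 12.39 on the control arrays (adjusted p = 0.179). The 6 luminal breast markers had a mean log2 value of 8.48 to 8.55 on the knockdown arrays and 8.496 to 8.52 on the control arrays, and none was called. Among them PGR, the progesterone receptor gene, read 5.38 to 5.74 on the knockdown arrays and 5.40 to 5.45 on the control arrays, and the keratin gene KRT8 12.94 to 13.01 and 12.88 to 12.99. Without a detection call, a low intensity here may be background, and intensities of different probe sets do not rank genes by amount of RNA. In such bulk RNA, fewer cells that express a gene and less RNA per cell cannot be told apart. The part of any leukocyte RNA in the results was not tested.

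A total of 2 members rose and none fell in the knockdown: TNFSF4, which encodes OX40L, and TNFSF18, which encodes GITRL. Both are costimulatory ligands that act on T cells, and they are neighbours on chromosome 1. The other 37 members did not pass. Over all genes, 3.05% were called, 1.28% higher and 1.78% lower, so the 5.13% of members called rests on 2 genes and stands near that background. With 1 array left out, 0 to 2 members were called. In 7 members, the 2 called ones included, every knockdown array lay above every control array, and in 6 every knockdown array lay below. These shares, 17.9% and 15.4%, are close to the 14.3% and 12.7% of all genes. The median difference of the members was 0.06, against 0.03 over all genes, and their median absolute difference was 0.0941, against 0.0902 over all genes. At an unadjusted p of 0.05, 5 members were higher (12.8%) and 4 lower (10.3%), near the 10.1% and 9.23% of all genes. Among the 39 members, 27 lay outside the lowest tercile of genes by mean intensity.

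**Figure D1:**
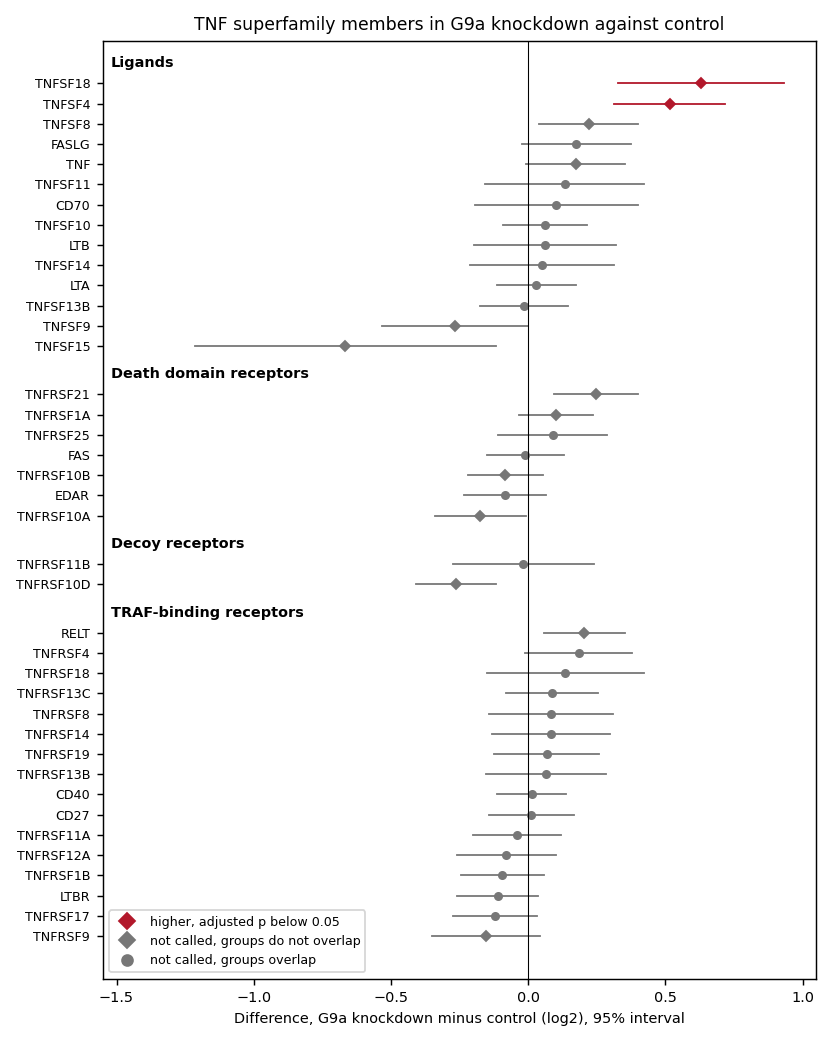
Difference of each of the 39 members between G9a knockdown and control (horizontal axis, log2, point with 95% interval from limma), by role of the protein. Red marks the 2 called members, TNFSF18 at 0.63 and TNFSF4 at 0.52; diamonds mark members whose groups do not overlap.

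TNFSF4 read 8.33, 8.52 and 8.41 in the knockdown and 8.06, 7.88 and 7.78 in the control. All 3 knockdown arrays lay above all 3 control arrays. The mean was 8.42 ± 0.09 in the knockdown and 7.91 ± 0.14 in the control (SD, n = 3 each), a 1.43-fold rise with a log2 difference of 0.52 ± 0.09 (SE, limma, adjusted p = 0.0250). OX40L binds OX40, the product of TNFRSF4, and prolongs T cell responses. TNFSF18 read 6.89, 7.21 and 7.01 in the knockdown, against 6.44, 6.14 and 6.64 in the control. The groups again did not overlap, and the closest pair was knockdown replicate 1 and control replicate 3. Its mean was 7.04 ± 0.16 in the knockdown and 6.41 ± 0.25 in the control (SD, n = 3 each), 1.55-fold higher with a log2 difference of 0.63 ± 0.13 (SE, limma, adjusted p = 0.0455). The knockdown replicate 2 array was the highest of the 6 for both genes. TNFSF18 belonged to the lowest tercile of genes by mean intensity and TNFSF4 did not.

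Both calls were lost in most fits with 1 array left out, while the differences kept their sign. Over all genes, such fits gave 44 to 535 calls, against 562 with all arrays. With 1 array left out, TNFSF4 ranged from 0.45 to 0.59 and passed in 2 of 6 fits, those without control replicate 1 (adjusted p = 0.0303) and without control replicate 3 (adjusted p = 0.0470). TNFSF18 ranged from 0.50 to 0.74 and passed in 1 of 6, without control replicate 3 (adjusted p = 0.0324). Over the 5 other fits its adjusted p lay between 0.0965 and 0.150. For TNFSF4 the highest adjusted p with 1 array left out was 0.108. With control replicate 3 and knockdown replicate 1 both left out, a setting chosen after seeing the data, TNFSF4 was at 0.49 (adjusted p = 0.0615) and TNFSF18 at 0.82 (adjusted p = 0.0510).

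The promoters of these 2 ligands are shown because they are the called members and lie side by side, and that of TNFSF15 because it is the member with the largest absolute difference with all arrays in the fit. Each line gives the 250 bases before the start listed for that gene in the RefSeq table (GRCh38.p14), 5′ to 3′, on the minus strand. Whether the listed start is the main start of the gene was not checked, and a window may lie inside a longer transcript. The windows are TNFSF4 at chr1:173205533-173205782, TNFSF18 at chr1:173050942-173051191 and TNFSF15 at chr9:114792531-114792780. Capitals mark a match to one of 3 motifs searched on both strands, the AP-1 site TGANTCA, the TATA box TATAAA and the kappaB consensus.
TNFSF4: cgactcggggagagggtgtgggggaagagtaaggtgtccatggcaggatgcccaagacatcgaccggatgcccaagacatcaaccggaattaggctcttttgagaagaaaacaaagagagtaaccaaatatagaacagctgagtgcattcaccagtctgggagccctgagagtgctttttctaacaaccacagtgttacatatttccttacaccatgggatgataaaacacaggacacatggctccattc
TNFSF18: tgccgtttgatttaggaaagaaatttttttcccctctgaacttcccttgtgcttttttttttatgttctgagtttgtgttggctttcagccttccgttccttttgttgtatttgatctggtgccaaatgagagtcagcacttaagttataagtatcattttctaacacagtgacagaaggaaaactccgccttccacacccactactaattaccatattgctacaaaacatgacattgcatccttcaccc
TNFSF15: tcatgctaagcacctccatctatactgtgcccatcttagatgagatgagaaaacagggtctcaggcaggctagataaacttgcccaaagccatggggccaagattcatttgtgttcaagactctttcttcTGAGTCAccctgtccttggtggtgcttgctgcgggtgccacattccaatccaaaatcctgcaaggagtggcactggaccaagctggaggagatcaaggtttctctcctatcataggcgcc

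The 1 match in these windows was an AP-1 site in TNFSF15, from base 120 to base 114 before the start, overlapping no other match. Among 35116 promoter windows of the same length in the RefSeq table, 6.57% held the AP-1 motif, 10.7% the TATA box and 9.96% the kappaB consensus. The windows of TNFSF4, TNFSF18 and TNFSF15 held 5, 3 and 2 CpG dinucleotides, where the median window of the table held 11. The 36 windows that belonged to 27 of the 39 members had a median of 9. Of these 36 windows, 10 held the kappaB consensus, 6 the AP-1 motif and 6 the TATA box. Some members had more than 1 window, and the member shares were not tested against those of the table. These letters describe the windows and say nothing of which factors bind there.

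In the RefSeq gene order of tested genes, FASLG, TNFSF18 and TNFSF4 follow one another with no other tested gene between them. FASLG encodes Fas ligand, which triggers apoptosis through FAS. It read 6.61, 6.29 and 6.47 in the knockdown and 6.32, 6.23 and 6.29 in the control, with overlapping groups and a difference of 0.18 ± 0.09 (SE, limma, adjusted p = 0.311). Without knockdown replicate 1, its highest array, the FASLG difference was 0.0997. The 20 tested genes flanking the TNFSF18 and TNFSF4 pair, 10 on each side and FASLG among them, had a median difference of 0.09 and a range from -0.18 to 0.18. None of the 20 was called by limma. The flanking genes here and at the loci described next were chosen after the members' values were seen.

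**Figure D2:**
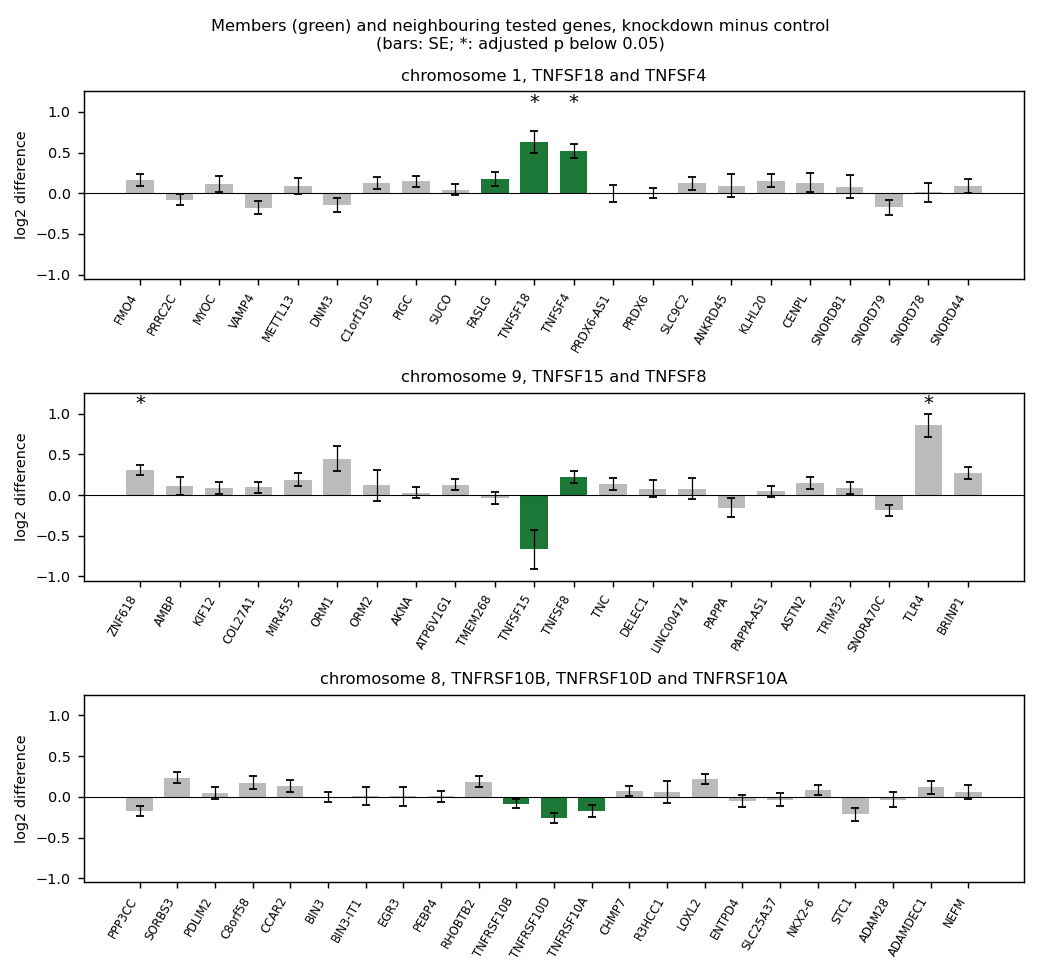
Difference between G9a knockdown and control (vertical axis, log2, bars with SE) at 3 loci, in gene order, with 10 tested genes on each side. Members are in green, the flanking FASLG among them, and other genes in grey. The TNFSF18 and TNFSF4 bars, 0.63 and 0.52, stand among flanking genes between -0.18 and 0.18, and TNFSF15 at -0.67 stands beside TNFSF8 at 0.22.

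TNFSF15, encoding TL1A, the ligand of DR3, had the largest absolute difference among members with all arrays in the fit. It read 7.13, 6.92 and 6.93 in the knockdown, against 7.29, 7.37 and 8.31 in the control. The groups did not overlap, but control replicate 3 lay far above the other 5 arrays. The mean was 6.99 ± 0.12 in the knockdown and 7.66 ± 0.57 in the control (SD, n = 3 each), and the difference of -0.67 ± 0.24 (SE) was not called (limma, adjusted p = 0.179). Without control replicate 3 the difference was -0.34 (adjusted p = 0.0838), smaller in size than those of TNFSF18 (0.74) and TNFSF4 (0.45). Without that array and knockdown replicate 1 it was -0.41 and passed (adjusted p = 0.0441).

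TNFSF8, the CD30 ligand gene, is the tested gene next to TNFSF15. It read 6.73, 6.50 and 6.56 in the knockdown and 6.31, 6.35 and 6.46 in the control. Its groups did not overlap and its difference lay on the other side of 0 from that of TNFSF15, at 0.22 ± 0.08 (SE, limma, adjusted p = 0.176). Among 20 tested genes around this pair the median difference was 0.10, and 17 were positive, where 59.6% of all genes were. There were 2 called genes among them, both higher: ZNF618 at 0.31 (adjusted p = 0.0369) and the toll-like receptor gene TLR4 at 0.86 (adjusted p = 0.0210).

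TNFSF9, the ligand of 4-1BB, read 9.54, 9.44 and 9.45 in the knockdown, against 9.58, 9.63 and 10.03 in the control. Again control replicate 3 was the highest array, and the groups did not overlap. The TNFSF9 difference was -0.27 ± 0.12 (SE, limma, adjusted p = 0.255). Leaving out control replicate 3 gave -0.13. CD70 (0.10) and TNFSF14 (0.05), which follow TNFSF9 directly in the order of tested genes on chromosome 19, had overlapping groups. TNF, the founding cytokine, read 7.10, 6.90 and 6.94 in the knockdown and 6.70, 6.87 and 6.86 in the control. Every knockdown array lay above every control array, with a difference of 0.17 ± 0.08 (SE, limma, adjusted p = 0.274). TNF had 3 probe sets with identical values, which count as 1 measurement.

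The lymphotoxin genes LTA and LTB flank TNF, and both had overlapping groups. LTA, lymphotoxin alpha, differed by 0.03 on the probe set used and by 0.07 and 0.13 on its other probe sets. LTB, which anchors lymphotoxin in the membrane, differed by 0.06 on the probe set used and on 2 identical ones, and by -0.04 on another, so its direction was not settled. TNFSF10 encodes TRAIL, the ligand of the death receptors DR4 and DR5. It read 11.32, 11.49 and 11.43 in the knockdown and 11.32, 11.40 and 11.35 in the control, with overlapping groups and a difference of 0.06 (95% interval -0.09 to 0.21). The RANK ligand gene TNFSF11 (0.13) and the BAFF gene TNFSF13B (-0.01) had overlapping groups too. Among the 14 ligands, 11 had positive and 3 negative values (78.6% positive, against 59.6% of all genes), and the median was 0.08. Of these ligands, 9 lay in the lowest tercile of genes by mean intensity. Knockdown replicate 1 was the highest array for 7 of them (50%, against 31.9% of all genes).

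**Figure D3:**
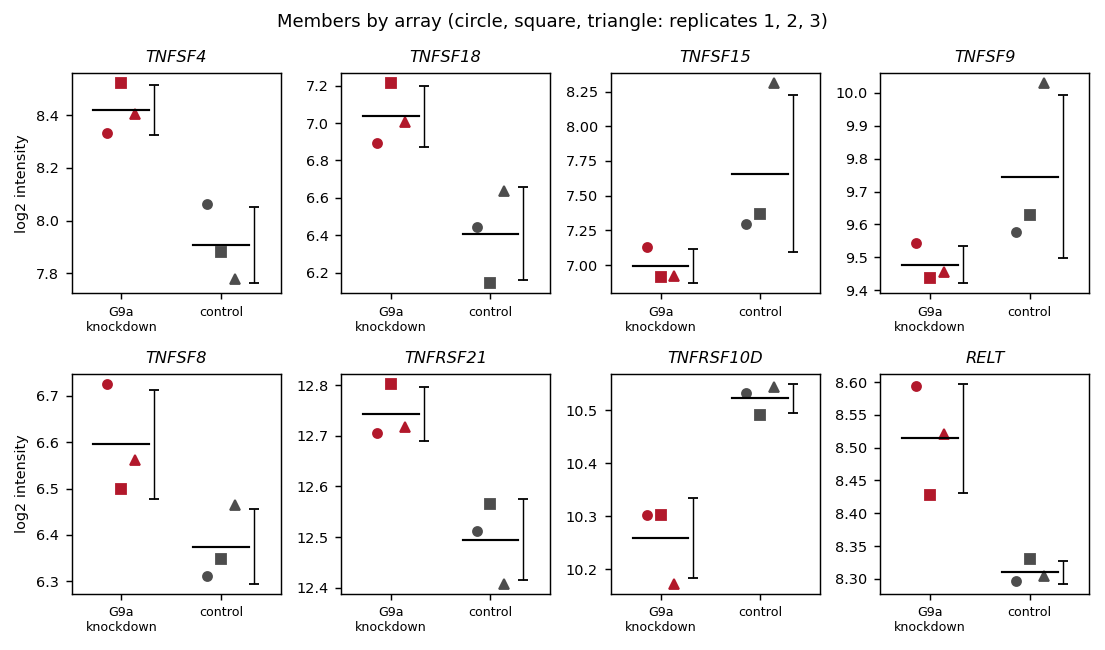
Log2 intensity on each array (vertical axis) for 8 members, G9a knockdown in red at the left and control in grey at the right of each panel; circles, squares and triangles are replicates 1, 2 and 3, lines are means and bars SD (n = 3). Vertical axes differ between panels and do not start at 0. In TNFSF15 and TNFSF9 control replicate 3 stands at 8.31 and 10.03, above the other arrays.

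None of the 25 receptors was called by limma, with 2 higher and 2 lower at an unadjusted p of 0.05 (8% each, against 10.1% and 9.23% of all genes). Their median difference was 0.01, with 13 positive and 12 negative values. The groups did not overlap in 3 with a higher knockdown (12%) and in 4 with a lower one (16%), against 14.3% and 12.7% of all genes. Among the 7 death domain receptors, TNFRSF21, which encodes DR6, had the largest difference. It read 12.71, 12.80 and 12.72 in the knockdown and 12.51, 12.56 and 12.41 in the control, with no overlap. Its difference of 0.25 ± 0.07 (SE, limma) had an adjusted p of 0.0883. The call changed with the setting. TNFRSF21 passed with an intensity trend (limma, adjusted p = 0.0184), with array weights (0.0286) and with the lowest tercile of genes left out (0.0485). These settings called 1083, 3328 and 972 genes in all, in that order, against 562 without them. With 1 array left out TNFRSF21 passed in none of the 6 fits.

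The TRAIL receptor genes lie together on chromosome 8, and 3 were measured singly, TNFRSF10A, TNFRSF10B and TNFRSF10D. All 3 had every knockdown array below every control array, as did 12.7% of all genes. TNFRSF10D encodes DcR2, a decoy with a truncated death domain. It read 10.30, 10.30 and 10.17 in the knockdown and 10.53, 10.49 and 10.54 in the control. Its difference was -0.26 ± 0.06 (SE, limma, adjusted p = 0.0659), and it passed with an intensity trend (0.0280), array weights (0.00807) and the lowest tercile of genes left out (0.0338), but in none of the 6 fits with 1 array left out. TNFRSF10A, encoding the death receptor DR4, read 8.49, 8.53 and 8.45 in the knockdown and 8.75, 8.71 and 8.54 in the control, a difference of -0.17 ± 0.07 (SE, limma, adjusted p = 0.234). It passed with array weights (-0.23, limma, adjusted p = 0.0143), a setting that called 8 members and 3328 genes in all. TNFRSF10B, encoding the death receptor DR5, read 10.31, 10.33 and 10.25 in the knockdown and 10.36, 10.35 and 10.43 in the control. The DR5 difference was -0.08 ± 0.06 (SE, limma, adjusted p = 0.486). TNFRSF10C, the gene of the decoy DcR1, shares its probe set with another gene, and that probe set differed by 0.13. The 20 tested genes around the 3 receptor genes had a median difference of 0.05, with none called by limma. These receptors are close paralogs, and probe sets that share signal could move together; this was not tested.

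Of the other death domain receptors, TNFRSF1A, encoding the main TNF receptor TNFR1, read 11.54, 11.52 and 11.44 in the knockdown and 11.39, 11.41 and 11.40 in the control. Its groups did not overlap, with a difference of 0.10 ± 0.06 (SE, limma, adjusted p = 0.382). FAS, the receptor of Fas ligand, differed by -0.01 (95% interval -0.15 to 0.13), TNFRSF25, the DR3 gene, by 0.09, and EDAR, the ectodysplasin receptor gene, by -0.08; their groups overlapped. TNFRSF11B encodes osteoprotegerin, a secreted decoy for RANK ligand. It read 9.83, 9.76 and 9.80 in the knockdown and 9.64, 9.72 and 10.09 in the control. Control replicate 3 lay above and the other control arrays below all knockdown arrays, and the difference was -0.02 with all arrays and 0.12 without control replicate 3 (adjusted p = 0.291).

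Among the 16 TRAF-binding receptors, 10 had positive and 6 negative values, 62.5% positive against 59.6% of all genes. RELT, a receptor found in lymphoid tissue, read 8.59, 8.43 and 8.52 in the knockdown and 8.30, 8.33 and 8.30 in the control. Its groups did not overlap and its difference was 0.20 ± 0.06 (SE, limma, adjusted p = 0.131). The 4-1BB gene TNFRSF9 was the other one without overlap, at -0.15 (adjusted p = 0.370); it was highest on control replicate 3, at 8.73, where the other control arrays read 8.45 and 8.48. LTBR, the lymphotoxin beta receptor, read 11.02, 10.97 and 10.98 in the knockdown and 11.10, 11.01 and 11.18 in the control, a difference of -0.11 ± 0.06 (SE, limma, adjusted p = 0.391). TNFRSF12A, encoding the TWEAK receptor Fn14, read 12.21, 12.06 and 11.97 in the knockdown and 12.10, 12.14 and 12.24 in the control. The Fn14 groups overlapped (difference -0.08, 95% interval -0.26 to 0.10). TNFRSF1B for TNFR2 (-0.09), TNFRSF17 for BCMA (-0.12) and TNFRSF11A for RANK (-0.04) were likewise not called. CD40 (0.01), CD27 (0.01), TNFRSF8 (0.08), TNFRSF13B (0.07), TNFRSF13C (0.09), TNFRSF14 (0.08) and TNFRSF19 (0.07) had overlapping groups as well.

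Set beside their receptors, the called ligands had partners with smaller, uncalled differences. TNFRSF4, the OX40 gene, read 8.28, 8.01 and 8.10 in the knockdown and 7.87, 7.94 and 8.03 in the control, with overlapping groups and a difference of 0.18 ± 0.08 (SE, limma, adjusted p = 0.282). TNFRSF18, the GITR gene, differed by 0.13 ± 0.12 (SE, limma, adjusted p = 0.602), and its knockdown arrays spread from 8.69 to 9.23. Without knockdown replicate 1 the TNFRSF4 difference was 0.11 and that of TNFRSF18 was -0.00455, on the other side of 0. TNFSF9 and its receptor gene TNFRSF9 both had negative values, -0.27 and -0.15, which were -0.13 and -0.0657 without control replicate 3. TNFSF15 and its receptor gene TNFRSF25 had values of opposite sign, -0.67 and 0.09. None of these differences between partners was tested.

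Knockdown replicate 1 was the highest of the 6 arrays for 18 of the 39 members (46.2%), compared with 31.9% of all genes, and control replicate 1 the lowest for 15 (38.5%, compared with 19.9%). Control replicate 3 was the highest for 10 (25.6%, compared with 19.8%). The part of these arrays in the small positive values of many members was not tested. For TNFSF4 and TNFSF18 neither of the first 2 arrays was the extreme one.

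**Figure D4:**
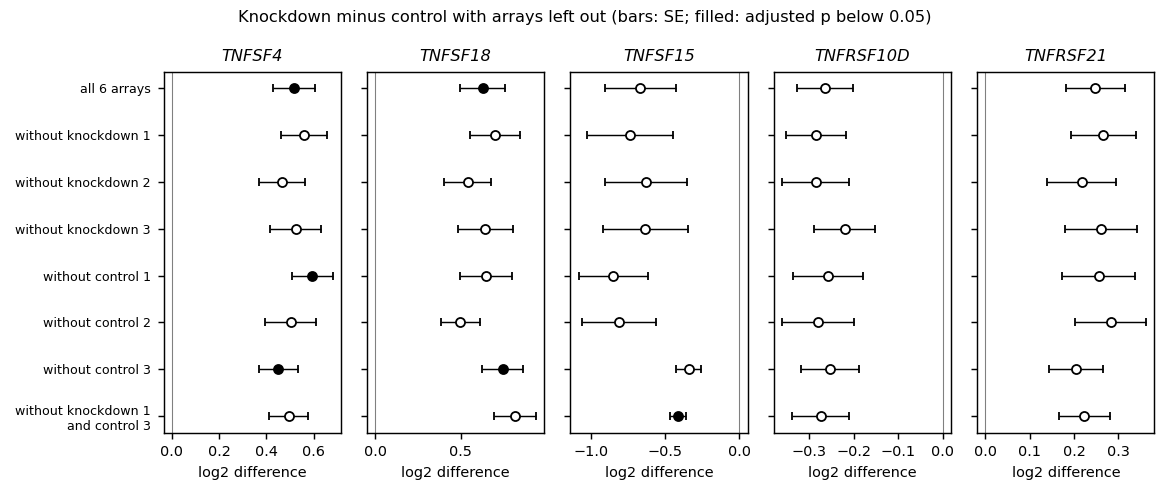
Difference between G9a knockdown and control (horizontal axis, log2, with SE) for 5 members with all 6 arrays, with each array left out in turn, and with 2 arrays left out. Filled points have an adjusted p below 0.05; TNFSF15 stands at -0.67 with all arrays and at -0.34 without control replicate 3, and all 5 members keep their sign.

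Some family genes had no value of their own. TNFSF12 and TNFSF13, for TWEAK and APRIL, share 1 probe set (0.07), and TNFRSF6B, for the soluble decoy DcR3, shares one with RTEL1 (0.11). CD40LG was not analysed here. Of the family genes with other symbols, NGFR (0.15), EDA (-0.09) and EDA2R (-0.06) did not pass.

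Downstream of the receptors, regulators of NF-kappaB such as TNIP1, TNFAIP3 and NFKBIA fell. The chemokine gene CXCL10 and VCAM1 rose, while the chemokine gene CXCL1 fell. Negative values were found for 11 of the 16 measured TNF-induced genes and positive ones for 5. Of 74 listed pathway genes 66 were measured singly, and 2 rose and 7 fell, 13.6% called, against 3.05% of all genes; the lists were chosen with earlier results of these data known, and their share is no independent evidence. The median over the 66 was -0.08. Leaving out single arrays gave between 0 and 9 calls among them. Control replicate 3 was the highest array for 31 of the 66 (47.0%), compared with 19.8% of all genes; its part in the negative values was not tested.

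Of 16 measured TRAF, IAP and ubiquitin regulators, 3 fell, none rose and 13 did not pass (median -0.07). TNIP1, whose product helps A20 restrain NF-kappaB, read 9.96, 9.98 and 9.89 in the knockdown and 10.46, 10.40 and 10.63 in the control. The groups were well apart, with a fall by 0.55 on the log2 scale (SE 0.07, limma, adjusted p = 0.0120), and TNIP1 passed in 4 of 6 fits with 1 array left out. TNFAIP3, encoding A20 itself, fell by 0.58 (adjusted p = 0.0466), or by 0.43 without control replicate 3 (0.0265), the 1 of 6 fits with an array left out in which it passed. The highest adjusted p of TNFAIP3 in those fits was 0.1715. CYLD, a deubiquitinase that limits TNF receptor signalling, read 9.28, 9.44 and 9.48 in the knockdown and 9.81, 9.70 and 9.85 in the control. CYLD fell by 0.39 (limma, adjusted p = 0.0380) and passed in none of the 6 fits with 1 array left out.

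Of 15 measured IKK and NF-kappaB core genes, 3 fell, none rose and 12 did not pass (median -0.14). They were NFKBIA, the inhibitor IkappaB alpha, which fell by 0.40 (limma, adjusted p = 0.0461), NFKB2, the p100 precursor of the noncanonical pathway, by 0.35 (0.0397), and CHUK, the kinase IKK alpha, by 0.33 (0.0461). CHUK read 10.22, 10.38 and 10.30 in the knockdown and 10.71, 10.64 and 10.55 in the control. NFKB2 and NFKBIA passed in none of the fits with 1 array left out and CHUK in 1. MAP3K14, the NIK kinase gene, had the largest positive value, 0.37 (adjusted p = 0.261), and its control replicate 3 array read 9.10 where the others read 9.71 to 9.96, with a difference of 0.16 without it; it was named after its values were seen.

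Of 16 measured TNF-induced genes, 2 rose, 1 fell and 13 did not pass (median -0.20). VCAM1, an adhesion molecule for leukocytes, read 7.60, 7.93 and 7.86 in the knockdown and 7.07, 6.96 and 7.34 in the control, a rise by 0.68 ± 0.12 (SE, limma, adjusted p = 0.0273). It passed in 1 of 6 fits with 1 array left out. The chemokine gene CXCL10 rose by 1.43 (adjusted p = 0.0112) and CXCL1 fell by 1.34 (0.0458). With 1 array left out, CXCL10 passed in 4 of 6 fits and CXCL1 in 1, without control replicate 3, where it was at -0.96; its adjusted p in those fits reached 0.160. CXCL8, the interleukin 8 gene, had the largest negative value, -1.49, and did not pass (adjusted p = 0.0558). It was named after its values were seen. Without control replicate 3 CXCL8 was at -1.02 and passed (limma, adjusted p = 0.0060), the 1 of 6 fits with an array left out in which it did. CXCL2 and IL6, not called with all arrays, also passed without that array. The mean log2 value of these 16 genes was 8.64 to 8.67 in the knockdown and 8.72, 8.78 and 9.15 in the control. Control replicate 3 was the highest array for 11 of the 16.

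None of 10 measured death domain adaptor, caspase and necroptosis genes passed in limma (median -0.04), with 1 higher and 1 lower at an unadjusted p of 0.05. The largest values were those of CFLAR, encoding the caspase-8 inhibitor FLIP (-0.27, adjusted p = 0.0986), and CASP8 (0.17, adjusted p = 0.410, and 0.0604 without control replicate 3). None of 6 genes of ligand and receptor shedding passed in limma (median 0.03), with 1 higher at an unadjusted p of 0.05; FURIN, a proprotein convertase, was at 0.20 (adjusted p = 0.136) and the metalloprotease inhibitor TIMP3 at 0.15 (adjusted p = 0.267).

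**Figure D5:**
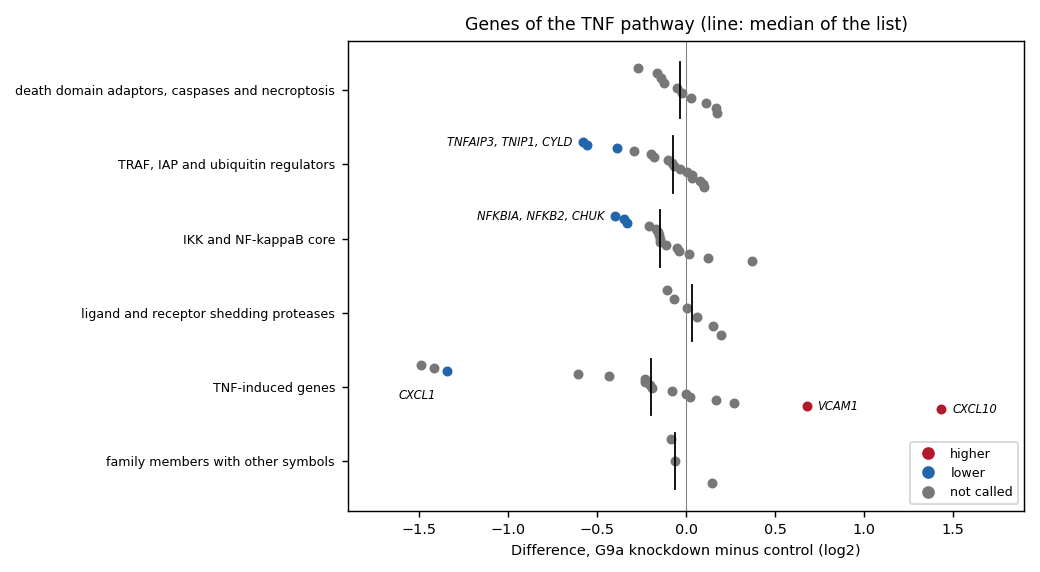
Difference between G9a knockdown and control (horizontal axis, log2) for 66 genes in 6 lists of the TNF pathway, with a line at each list's median. Called genes are named: 7 lower in blue, 6 of them in the TRAF and NF-kappaB lists, and VCAM1 and CXCL10 higher in red.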

How the data were processed

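Total RNA of 6 samples, 3 per group by their titles, was labelled with biotin and hybridised to 1-colour arrays, per the labels. The authors deposited log2 values, already summarised and scaled; no source used here gives the software or the log base, and the base was inferred from the range (2.13 to 14.8). Of 33297 probe sets, 19460 had 1 platform symbol and 1754 several. Symbols were updated through Entrez numbers against RefSeq (GRCh38.p14; 19429 found), and per gene the probe set with the highest mean was kept. All 18417 genes were fitted with limma 3.58.1 in R 4.3.3 (4 residual degrees of freedom, two-sided, Benjamini-Hochberg over all genes). Members given by array were those called, the 12 largest differences and the 8 highest means; from each pathway list, up to 4 called genes, or the 2 largest. Members and lists were chosen with earlier results of these data known. The number of arrays limits the precision. The fit was tested on simulated arrays with the same spread on every array, a setting the real arrays need not share. Alternatives covered scaling, variance trend, array weights, low-value filter, probe set choice, a replicate block and leaving out arrays. No set test was made.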

Additional observations from a re-analysis of the deposited data

How the results depend on the processing

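The count of called members, 2 with all arrays, was 1 after quantile normalization (TNFSF4) and 4 with an intensity trend. It was 8 with array weights, 3 without the lowest tercile of mean expression (TNFSF4, TNFRSF10D and TNFRSF21) and 0 with every probe set tested. The array weights ran from 0.273 for control replicate 3 to 4.83 for control replicate 2. With 1 array left out, the count of called members was 0 to 2. With control replicate 3 and knockdown replicate 1 both left out, a setting chosen after seeing the data, it was 1 (TNFSF15). The count over all genes, 562, was 1083 with an intensity trend, 3328 with array weights, 972 without the lowest tercile of mean expression, 47 with every probe set tested, 343 with those 2 arrays left out, and 44 to 535 with 1 array left out. The count of pathway genes, 9, was 5 after quantile normalization, 14 with an intensity trend, 26 with array weights, 0 with every probe set tested, and 0 to 9 with 1 array left out. By their titles same-numbered arrays share a number, and whether they were handled together is not known. The correlations of their deviations from the group means were -0.246, 0.122 and 0.0877. With a replicate block, 0 members, 217 genes in all and 3 pathway genes were called. Of the 39 members, 27 kept their sign in every setting that gave a value and 12, none of them called, did not. TNFRSF11B was at 0.0731 with array weights and 0.10 with those 2 arrays left out, where FAS was at 0.0143 and TNFRSF19 at -0.0539. CD27 was at -0.0184 after quantile normalization, -0.00869 with median centring and -0.00177 with array weights, CD40 at -0.00791 with median centring and LTB at -0.00348 with array weights. With 1 array left out, the lowest and highest values were -0.11 and 0.12 for TNFRSF11B, -0.0247 and 0.0530 for CD27, -0.0220 and 0.21 for CD70, -0.0507 and 0.0109 for FAS, -0.00369 and 0.0591 for LTA, -0.0516 and 0.13 for LTB, -0.00156 and 0.15 for TNFRSF13B, -0.00455 and 0.26 for TNFRSF18, -0.0654 and 0.0207 for TNFSF13B, and -0.0784 and 0.16 for TNFSF14. The cause of these changes was not tested. The 12 members in the lowest tercile of mean intensity, TNFSF18, TNFSF15, TNF, FASLG and TNFSF8 among them, had no value with that tercile left out, and signal over background was not assessed.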
